A study of Mus musculus with 6 samples.

Results

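The inhibitory receptors of the cerebellum were followed through 27 genes: the subunits of the GABA and glycine receptors on a given list, the proteins that hold these receptors at synapses or assist them, the carriers that set neuronal chloride, and the GABA transporter *Slc6a11* and the GABA-degrading enzyme *Abat*. The members were taken by name from a list, matched to the deposited table by Ensembl gene identifier with the version removed, so the rule itself used no measured value. The list was chosen with earlier results of these data known. All 27 were present among the 53715 genes of the table, and 23 of them were among the 16330 genes with enough counts to be tested.

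GABA and glycine are the main inhibitory transmitters of the brain. GABAA and glycine receptors are chloride channels built from 5 subunits, so the subunits a cell makes set where its receptors sit, how long they open and which drugs they bind, and the GABAB receptor acts more slowly through G proteins. In the cerebellar cortex, granule cells are inhibited by Golgi cells through synaptic and extrasynaptic GABAA receptors, and Purkinje cells by the interneurons of the molecular layer.

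RNA-Seq measured the cerebellum of C57BL/6 males (C57BL/6J in the study's methods) at 4 weeks of age, 3 of them controls and 3 with a neuron-specific knockout of *Slc39a8* (*Slc39a8*-NSKO, or NSKO). *Slc39a8* encodes a metal transporter that carries manganese. In *Slc39a8*-NSKO mice, a Cre transgene under the synapsin promoter (*Syn-Cre*) removes floxed *Slc39a8* alleles in neurons, and the cells of the cerebellum that are not neurons keep the gene. The control samples are labeled WT, while the study describes *Slc39a8* fl/fl mice as controls of the cross, so whether the controls carried the floxed alleles cannot be told from the labels. The libraries held 14431245 to 20844248 counts on genes. *Slc39a8* itself was counted 99, 46, and 44 times in controls 1 to 3 but 38, 40, and 41 times in the NSKO mice, or 3.6 ± 1.03 and 2.04 ± 0.138 CPM (counts scaled to a common library total; mean ± SD, n = 3 each). This is 56.8% of the control level, with control 1 (4.77 CPM) above controls 2 and 3 (3.19 and 2.82 CPM). Every *Slc39a8*-NSKO mouse was below every control mouse, and 10.3% of all tested genes had genotypes apart in either direction. The gene did not pass the threshold across all genes (log2 fold change −0.83, SE 0.24, adjusted p = 0.534, edgeR's quasi-likelihood test with Benjamini-Hochberg adjustment). Markers of Purkinje and granule cells were abundant in all 6 mice, with summed levels of 7230 to 8670 and 4930 to 5350 CPM. In bulk tissue, fewer cells of a type and less RNA per cell cannot be told apart.

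The receptor genes lie in clusters in the mouse genome (GRCm38, GENCODE M21). On chromosome 5, *Gabrg1* (chr5:70751047-70842617), *Gabra2* (chr5:70957597-71095849), and *Gabra4* (chr5:71569749-71658308) are read from the minus strand, and *Gabrb1* (chr5:71658113-72149037) starts head to head with *Gabra4* on the plus strand. The spans of *Gabra4* and *Gabrb1* share 196 bases, and because the strand setting of the counting is not given in the sources used here, reads from the shared exonic bases could not be assigned with certainty. On chromosome 11, *Gabra6* (chr11:42306437-42321072, minus strand) lies beside *Gabrb2* (chr11:42419757-42629028, plus strand). These 6 genes include the most abundant member, *Gabra6*, and the 2 that differed most between mice among members with at least 130 counts in every mouse, so the promoter windows of *Gabra6*, *Gabra2*, and the head-to-head pair are shown. Each window runs from 250 bases before to 50 bases after a RefSeq transcript start (GRCm38.p6), is written 5′ to 3′ on the strand of the gene, and has each CG dinucleotide in capitals. The windows are those of *Gabra6* (chr11:42321023-42321322, minus strand), *Gabra2* (chr5:71095800-71096099, minus strand), *Gabra4* (chr5:71658259-71658558, minus strand), and *Gabrb1* (chr5:71657671-71657970, plus strand).
Gabra6: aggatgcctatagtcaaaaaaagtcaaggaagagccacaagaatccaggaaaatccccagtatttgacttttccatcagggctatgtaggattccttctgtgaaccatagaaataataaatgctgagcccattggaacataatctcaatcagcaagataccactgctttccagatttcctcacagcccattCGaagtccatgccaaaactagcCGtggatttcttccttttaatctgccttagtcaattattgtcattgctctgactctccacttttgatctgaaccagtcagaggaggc
Gabra2: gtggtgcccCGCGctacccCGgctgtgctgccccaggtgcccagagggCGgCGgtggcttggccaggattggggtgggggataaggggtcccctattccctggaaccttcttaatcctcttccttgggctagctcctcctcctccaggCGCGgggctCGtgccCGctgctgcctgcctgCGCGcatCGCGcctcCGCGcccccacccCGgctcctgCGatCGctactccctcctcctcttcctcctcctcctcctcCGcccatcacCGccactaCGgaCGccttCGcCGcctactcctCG
Gabra4: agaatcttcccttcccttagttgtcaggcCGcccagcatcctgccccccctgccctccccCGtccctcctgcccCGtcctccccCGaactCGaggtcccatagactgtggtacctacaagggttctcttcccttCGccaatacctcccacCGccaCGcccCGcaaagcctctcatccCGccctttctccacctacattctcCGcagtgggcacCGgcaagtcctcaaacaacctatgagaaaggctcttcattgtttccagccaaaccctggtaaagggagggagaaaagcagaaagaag
Gabrb1: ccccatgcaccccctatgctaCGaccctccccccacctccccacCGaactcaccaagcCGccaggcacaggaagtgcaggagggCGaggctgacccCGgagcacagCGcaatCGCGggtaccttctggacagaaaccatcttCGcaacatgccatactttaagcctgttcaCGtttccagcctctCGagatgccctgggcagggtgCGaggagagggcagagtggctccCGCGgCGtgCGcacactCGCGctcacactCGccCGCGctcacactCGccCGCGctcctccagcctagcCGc

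The promoters differed widely in CG content. The *Gabra6* window held 2 CG dinucleotides with a GC content of 42.0%, and 23.3% of all 32851 mouse windows held 2 or fewer. The *Gabra2* window held 25 CG dinucleotides with a GC content of 70.0%, and 18.4% of all windows held 25 or more. *Gabra4* had 12 and *Gabrb1* 25 in the windows printed, which lie at starts 387 bases apart. Windows were found for 23 of the 27 members, 28 in all, with 0 to 46 CG dinucleotides and a median of 13, against a median of 7 for all windows. The cAMP response element TGACGTCA, searched on both strands because the study tested cAMP-driven transcription, was in none of the 28 member windows and in 1.79% of all windows, which says only that these letters are not in these windows. TATAAA, searched on both strands, was in 4 member windows (both starts of *Gabra3*, 1 of the 3 starts of *Gabrb2*, and *Glra2*) and in 13.6% of all windows.

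The members were first ranked by their level per length, given as CPM per kilobase of the gene's exons (RPKM computed here). *Gabra6*, the alpha subunit that is a hallmark of cerebellar granule cells, was the most abundant member. It had 220, 211, and 216 RPKM in control mice and 233, 206, and 214 RPKM in NSKO mice, above 99.3% of the tested genes with a length. *Gabbr1*, the GABAB subunit that binds GABA, followed at 89.8 to 97.4 RPKM, then *Slc12a5*, the neuronal carrier that extrudes chloride, at 72.6 to 77.6 RPKM, and *Gabrd*, the delta subunit of extrasynaptic receptors, at 58.0 to 72.5 RPKM. With exon length, each of these neighbors in the order was separated from the next in all 6 mice with no overlap of the ranges. The lowest *Slc12a5* value, 72.6 RPKM, was just above the highest *Gabrd* value, 72.5 RPKM. *Abat*, which breaks down GABA, and *Glrb*, the glycine receptor beta subunit that binds the synaptic scaffold, came next at 39.5 to 46.8 and 40.4 to 44.9 RPKM and were not separated from each other.

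Below these, *Gabbr2*, the GABAB subunit that couples to G proteins, had 29.9 to 35.8 RPKM. *Gabrb2* (13.2 to 26.5 RPKM), *Lhfpl4* (19.6 to 21), and *Gphn* (19.0 to 21.1) were not separated from each other, and neither were *Slc12a2* (13.4 to 14.9 RPKM) and *Slc6a11* (10.9 to 15.3). The other alpha subunits were much lower than *Gabra6*: *Gabra4* had a mean over the 6 mice of 4.71 ± 0.369 RPKM, *Gabra2* of 3.22 ± 1.28 RPKM, *Gabra3* of 2.94 ± 0.42 RPKM, and *Gabra5* of 0.385 ± 0.133 RPKM (SD, n = 6). Of the 26 pairs of neighbors in the whole order, 10 had ranges that did not overlap. The order depended in part on the length used. With the median length of the coding transcripts, *Gabbr1* ranked 1, *Abat* 2, *Gabra6* 3, *Glrb* 4, *Slc12a5* 5, and *Gabrd* 6. With the longest transcript *Gabra6* stayed at rank 1, but *Abat* (rank 4) came before *Gabrd* (rank 5).

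**Figure D1:**
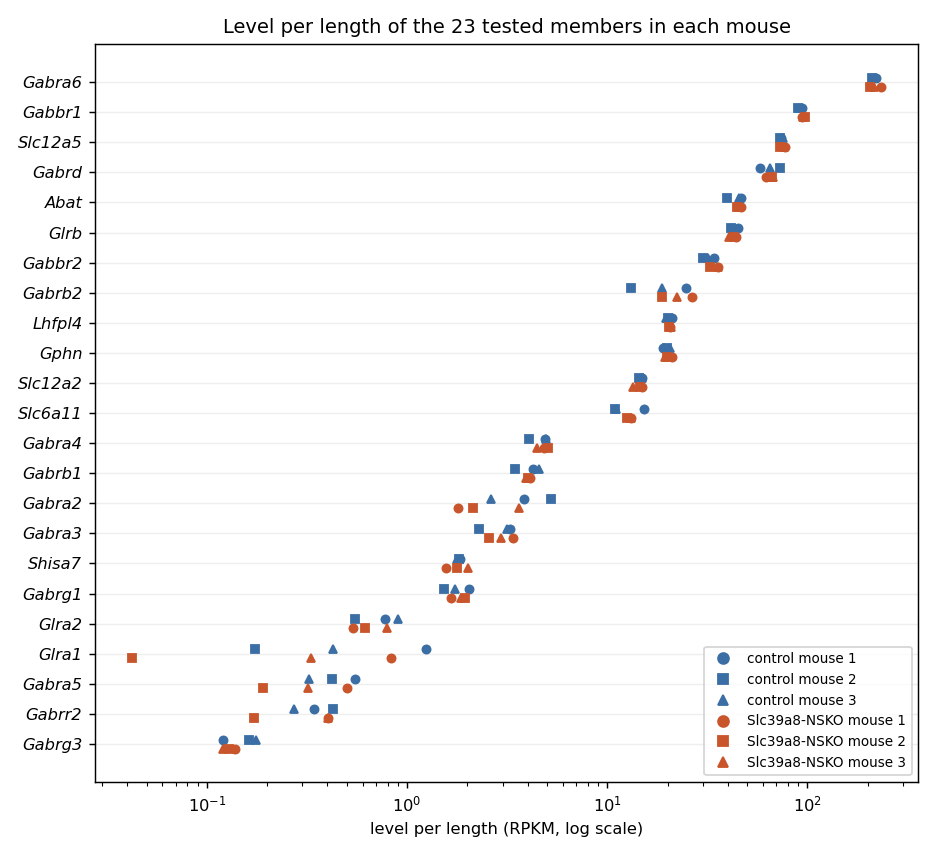
Level per length (RPKM, log scale) of the 23 tested members in each of the 6 mice, ordered by the mean, with blue symbols for control and red symbols for *Slc39a8*-NSKO mice and a symbol shape for each mouse number. *Gabra6* stands at 206 to 233 RPKM and *Gabrg3* at 0.12 to 0.177 RPKM, and in no member are the genotypes apart.

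The question of the design was whether these genes differ between control and NSKO cerebellum. None of the 23 tested members passed an adjusted p below 0.05 in edgeR's quasi-likelihood test with Benjamini-Hochberg adjustment, where 16 of 16330 genes passed (0.0980%), and limma-voom called 0 members beside 0.0735% of all genes. DESeq2 called 0 members beside 0.136% of the genes it tested, the fit with the replicate number as a block called 0 members beside 0.251%, and an adjusted p below 0.1 called 0 members beside 0.165%. At an unadjusted p below 0.05 the count was 1 member, *Gabra2*, against 5.39% of all genes. There was no member whose genotypes did not overlap in CPM, against 10.3% of all genes. Of the 23 log2 fold changes, 13 were above 0 and 10 below, with a median of 0.014 beside 0.0011 for all tested genes, and the adjusted p-values ran from 0.86 to 0.998. For 9 members the 95% interval of the log2 fold change lay within 0.2 of 0. When every gene with at least 1 count was tested, 178 genes (0.655%) and 2 members, *Gabra2* and *Gabrb2*, passed.

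**Figure D2:**
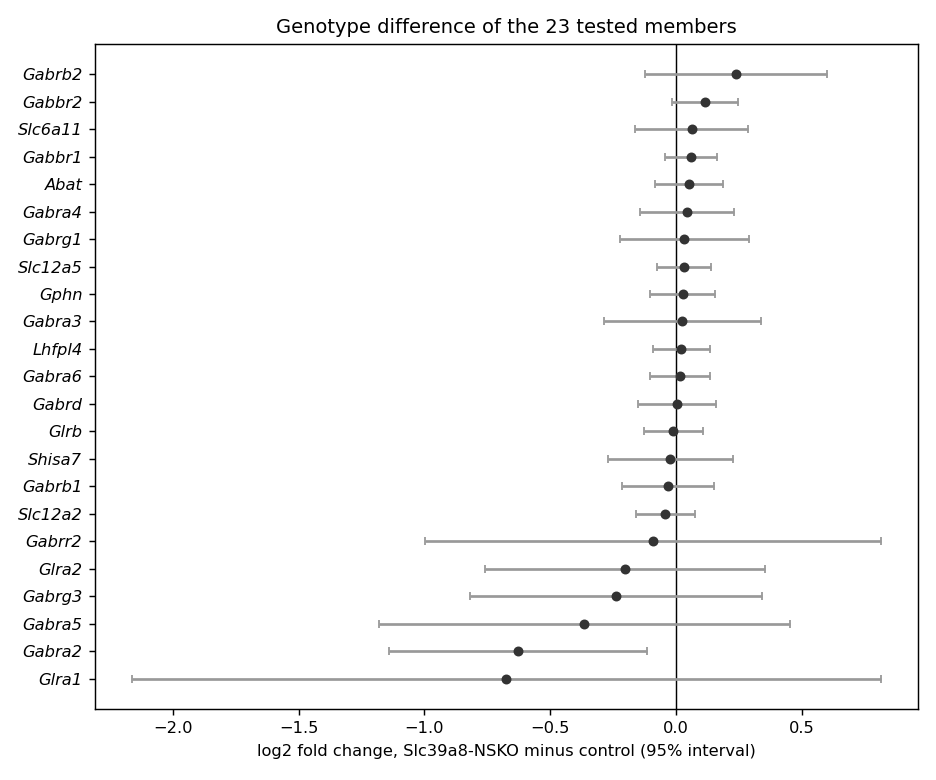
Log2 fold change of each of the 23 tested members, *Slc39a8*-NSKO minus control, with the 95% interval from edgeR's fit over all genes (3 mice per genotype). The points lie on both sides of 0, and the interval of *Gabra2* (−1.14 to −0.12) is the only one that leaves 0 out, before adjustment for the number of genes tested.

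Among the alpha subunits, *Gabra6* had 548, 525, and 537 CPM in control mice and 581, 513, and 532 CPM in NSKO mice. The highest and the lowest value were both in NSKO mice, so the control values lay inside the range of the other genotype. The log2 fold change was 0.014 (SE 0.055, 95% interval −0.11 to 0.13, adjusted p = 0.995 in edgeR), so that a difference of more than 1.1-fold up or below 0.93-fold is outside the interval.

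*Gabra2*, an alpha subunit of synaptic receptors that is abundant in the forebrain, was the member with the lowest p. It had 29.5, 40.0, and 20.1 CPM in control mice and 13.8, 16.4, and 27.7 CPM in NSKO mice. NSKO mice 1 and 2 were below every control mouse, but NSKO mouse 3 was above control mouse 3, so the groups overlapped. The means were 29.9 ± 9.96 and 19.3 ± 7.44 CPM (SD, n = 3 each), giving a log2 fold change of −0.63 (SE 0.24, 95% interval −1.14 to −0.12, unadjusted p = 0.0199, adjusted p = 0.86 in edgeR). The size of the value depended on single mice, being −0.98 without NSKO mouse 3 and −0.38 without control mouse 2. It was below 0 in all 14 alternative fits, and 9 members kept their sign in every such fit. The coefficient of variation of *Gabra2* within genotypes was 35.8%, above that of 93.8% of tested genes, with 275 to 612 counts per mouse. Markers of cerebral cortex and striatum, regions where *Gabra2* is abundant, summed to 17.4, 10.5, and 14.6 CPM in control and 11.1, 10.5, and 11.3 CPM in NSKO mice, and 0 of the 5 that could be tested passed the threshold. *Neurod6*, singled out from this list after its values were seen, had 6.25 to 7.89 CPM in control and 4.7 to 5.62 CPM in NSKO mice (log2 fold change −0.47, adjusted p = 0.678 in edgeR). The other tested markers of the list went both ways, with log2 fold changes of −0.918 for *Lamp5*, −0.165 for *Adora2a*, 0.212 for *Tbr1*, and 0.996 for *Drd2*. The part of these markers in the *Gabra2* values was not tested.

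The cluster neighbors of *Gabra2* varied less. *Gabra4*, which joins extrasynaptic receptors in many brain regions, had 29.9, 24.7, and 29.9 CPM in control mice and 29.3, 30.8, and 27.3 CPM in NSKO mice, giving a log2 fold change of 0.043 (SE 0.087). *Gabrb1*, a beta subunit, had 59.3, 48.1, and 63.0 CPM in control mice and 56.8, 55.9, and 54.4 CPM in NSKO mice, giving a log2 fold change of −0.031 (SE 0.085). *Gabrg1*, a gamma subunit found in Bergmann glia, had 16.1, 12, and 13.6 CPM in control mice and 13.0, 15.4, and 14.6 CPM in NSKO mice, giving a log2 fold change of 0.033 (SE 0.12). The genotypes overlapped in all 3 genes, and their coefficients of variation within genotypes were 8.55%, 9.86%, and 11.9%. The highest of the 6 values of *Gabra2* was in control mouse 2, the mouse with the lowest value of each of these 3 neighbors. This was not particular to the cluster: the same mouse was also lowest for members on other chromosomes, among them *Gabrb2*, *Gabra3*, and *Abat*, and highest for *Gabrd*.

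Of the remaining alpha subunits, *Gabra3* had 12.8, 9.03, and 12.3 CPM in control mice and 13.3, 10.1, and 11.6 CPM in NSKO mice. *Gabra5* was near the lower limit, with 34, 18, and 15 counts in control mice and 30, 11, and 18 counts in NSKO mice. Both genes overlapped between genotypes, with log2 fold changes of 0.025 (SE 0.14) and −0.37 (SE 0.38). The 95% interval of *Gabra5* ran from −1.18 to 0.45, which includes a level of 0.441-fold, and the value was −0.078 without NSKO mouse 2 and −0.77 without NSKO mouse 1.

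*Gabrb2*, the beta subunit that pairs with *Gabra6* in granule cells, differed more between mice of one genotype than between genotypes. It had 158, 84.0, and 120 CPM in control mice and 169, 119, and 141 CPM in NSKO mice. In both genotypes mouse 1 was highest and mouse 2 lowest, and the control range enclosed 2 of the 3 NSKO values. The log2 fold change was 0.24 (SE 0.17, 95% interval −0.12 to 0.60, adjusted p = 0.994 in edgeR), and it was 0.039 without control mouse 2 and 0.49 without control mouse 1. The coefficient of variation within genotypes was 23.9%, above that of 85.0% of tested genes although the gene had 1210 to 3373 counts per mouse.

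**Figure D3:**
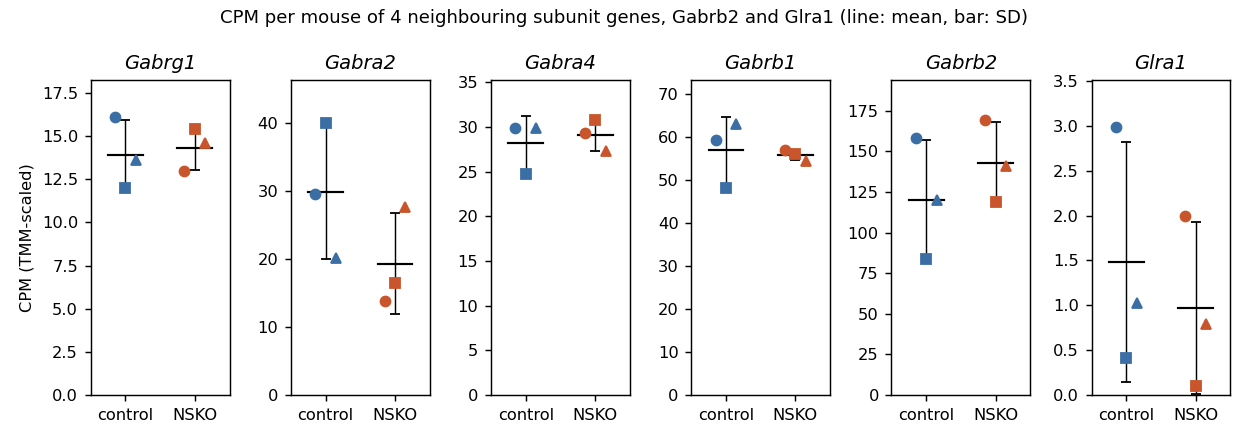
CPM of *Gabrg1*, *Gabra2*, *Gabra4*, and *Gabrb1*, which lie in a cluster on chromosome 5, and of *Gabrb2* and *Glra1*, in each mouse (circle, mouse 1; square, mouse 2; triangle, mouse 3), with the mean as a line and the SD as a bar, and each panel starting at 0. *Gabra2* spreads from 13.8 to 40.0 CPM and *Gabrb2* from 84.0 to 169 CPM, and in both the genotypes overlap.

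*Gabrd* had 167, 208, and 187 CPM in control mice and 179, 191, and 194 CPM in NSKO mice. The NSKO values fell inside the control range, and the log2 fold change was 0.0052 (SE 0.072, 95% interval −0.15 to 0.16). The other subunits that can take the place of gamma or delta were rare. *Gabrg3* had 30, 28, and 33 counts in control mice and 33, 30, and 27 counts in NSKO mice, giving a log2 fold change of −0.24 (SE 0.27). *Gabre*, the epsilon subunit, had 1 to 5 counts per mouse and *Gabrq*, the theta subunit, 0 to 3, and both were too low to be tested. The rho subunits, known from the retina, were at a similar floor, with 0 to 5 counts of *Gabrr1*, which was not tested, and 7 to 17 counts of *Gabrr2*. A count of 0 allows up to 3 counts in a library, so the depth does not show that *Gabrr1* or *Gabrq* RNA was absent, and this limit covers counting error only. The log2 fold change of *Gabrr2* was −0.092 with an interval of −0.997 to 0.814.

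The GABAB subunits were abundant and steady. *Gabbr1* had 730, 697, and 701 CPM in control mice and 726, 756, and 736 CPM in NSKO mice, and NSKO mouse 1 lay just below control mouse 1. *Gabbr2* had 229, 200, and 213 CPM in control mice and 238, 219, and 239 CPM in NSKO mice, and here NSKO mouse 2 lay below control mouse 1. The log2 fold changes were 0.059 (SE 0.048, adjusted p = 0.994 in edgeR) and 0.12 (SE 0.061, unadjusted p = 0.0803, adjusted p = 0.968). The interval of *Gabbr2* ran from −0.016 to 0.25, which leaves out a fold above 1.19.

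The glycine receptor was represented mainly by *Glrb*, with 209, 194, and 195 CPM in control mice and 205, 200, and 188 CPM in NSKO mice. The genotypes overlapped, and the log2 fold change was −0.011 (SE 0.055). The alpha subunits, which carry the glycine binding site together with the beta subunit, were far lower per length. *Glra2*, the alpha subunit of immature neurons, had 51, 25, and 44 counts in control mice and 34, 38, and 47 counts in NSKO mice. *Glra1*, the alpha subunit of adult spinal cord and brainstem, had 62, 6, and 16 counts in control mice and 40, 2, and 15 counts in NSKO mice. *Glra3* had 2 to 14 counts per mouse and was not tested. *Glra1* was highest in mouse 1 and lowest in mouse 2 of either genotype, the same order as *Gabrb2*. The log2 fold change of *Glra1* was −0.68 (SE 0.69, adjusted p = 0.994 in edgeR), and it turned to 0.41 without control mouse 1, so no direction can be given. That of *Glra2* was −0.20 (SE 0.26), and it was −0.055 without control mouse 3 and −0.37 without NSKO mouse 3.

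*Gphn* encodes gephyrin, the scaffold under glycine and GABAA receptors, which also serves molybdenum cofactor synthesis, and it had 71.1, 74.7, and 77.1 CPM in control mice and 79.2, 74.8, and 72.8 CPM in NSKO mice. *Lhfpl4*, which links GABAA receptors to neuroligin at inhibitory synapses, had 122, 118, and 114 CPM in control mice and 120, 118, and 121 CPM in NSKO mice. *Shisa7*, which controls receptor trafficking and kinetics, had 12.2, 12.1, and 11.7 CPM in control mice and 10.5, 11.7, and 13.4 CPM in NSKO mice. The genotypes overlapped in all 3, and the log2 fold changes were 0.026 (SE 0.060), 0.021 (SE 0.053), and −0.022 (SE 0.12). The coefficient of variation within genotypes of *Lhfpl4* was 2.61%, beside a median of 8.8% over the tested members and 8.25% over all tested genes.

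The chloride carriers set whether GABA inhibits. *Slc12a5* had 548, 542, and 565 CPM in control mice and 578, 541, and 571 CPM in NSKO mice, and *Slc12a2*, which imports chloride and is also made by glia and choroid plexus, had 163, 157, and 162 CPM in control mice and 163, 158, and 147 CPM in NSKO mice. The values of both overlapped between genotypes, with log2 fold changes of 0.030 (SE 0.050, 95% interval −0.077 to 0.14) and −0.043 (SE 0.055, 95% interval −0.16 to 0.076). The 4 choroid plexus markers summed to 937, 1100, and 759 CPM in control and 1050, 1540, and 890 CPM in NSKO mice, with a median log2 fold change of 0.38 and 0 of 4 past the threshold. Their fitted values were 0.31 for *Ttr*, 0.96 for *Folr1*, 0.42 for *Kl*, and 0.35 for *Clic6*, of which the last 3 were named after their values were seen. The part of these markers in the *Slc12a2* values was not tested.

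*Slc6a11*, the GABA transporter of astrocytes, had 77.1, 55.2, and 55.6 CPM in control mice and 66.8, 63.6, and 66.8 CPM in NSKO mice. *Abat*, the GABA transaminase of mitochondria, had 363, 306, and 352 CPM in control mice and 361, 344, and 353 CPM in NSKO mice. In both genes the NSKO values lay within the control range, with log2 fold changes of 0.062 (SE 0.11) and 0.052 (SE 0.063). The summed level of 6 Bergmann glia and astrocyte markers was 2590 to 2970 CPM in control and 3040 to 3150 CPM in NSKO mice, and that of 4 microglia markers was 59.5 to 65.4 and 69.9 to 74.0 CPM, with 0 of these 10 genes past the threshold. The sums of the Golgi and unipolar brush cell list (174 to 227 CPM), the oligodendrocyte list (6090 to 7500 CPM), and the endothelial list (77 to 90.8 CPM) overlapped between genotypes. The part of the glial lists in the levels of *Slc6a11*, *Abat*, and *Gabrg1* was not tested. Of 5 molecular layer interneuron markers, *Nxph1*, which was singled out after its values were seen, passed the threshold with a lower level in NSKO mice (log2 fold change −0.92, adjusted p = 0.00621 in edgeR), while the summed level of the list overlapped, at 1130 to 1190 and 1050 to 1220 CPM. The other markers of this list did not pass, with log2 fold changes of −0.012 for *Pvalb*, 0.062 for *Kit*, 0.171 for *Sorcs3*, and 0.042 for *Tfap2b*.

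Ratios between members were then compared within each mouse, since some of these pairs switch as neurons mature. The level per length of *Slc12a5* over *Slc12a2* was 4.94, 5.06, and 5.11 in control mice and 5.19, 5.01, and 5.70 in NSKO mice. The ratio of *Gabra6* to *Gabra2* was 57.0, 40.3, and 82.1 in control mice and 130, 96.2, and 58.9 in NSKO mice. *Gabrb2* over *Gabrb1* was 5.78, 3.8, and 4.14 in control mice and 6.46, 4.62, and 5.65 in NSKO mice. The genotypes overlapped in all 3 ratios, with differences on the log2 scale of 0.073 (exact permutation p = 0.3), 0.65 (exact permutation p = 0.2), and 0.30 (exact permutation p = 0.3). *Gabra6* over *Gabrd* (3.79, 2.91, and 3.32 against 3.75, 3.10, and 3.17) and *Gabbr1* over *Gabbr2* (2.74, 3, and 2.83 against 2.62, 2.98, and 2.65) also overlapped between genotypes. The ratio of *Gabra6* to *Gabra3* ran from 67.4 to 91.6, and that of *Glra1* to *Glra2* from 0.0687 to 1.59. After Benjamini-Hochberg adjustment over the 7 ratios the two-sided exact p-values ran from 0.7 to 1.0, and 3 mice against 3 cannot give an unadjusted p below 0.1.

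**Figure D4:**
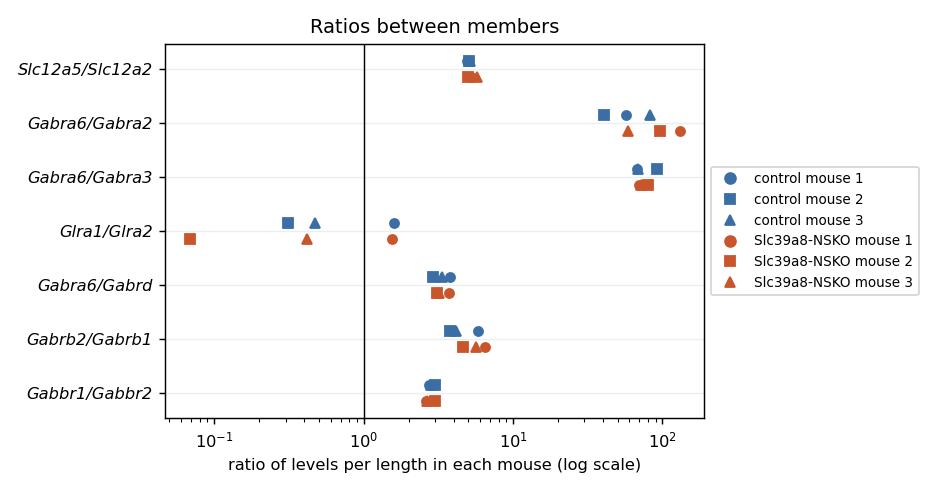
Ratio of the levels per length of 7 pairs of members in each mouse (log scale), with blue symbols for control and red symbols for *Slc39a8*-NSKO mice and a vertical line at a ratio of 1. *Slc12a5*/*Slc12a2* stays between 4.94 and 5.70, *Glra1*/*Glra2* spreads from 0.0687 to 1.59, and the genotypes overlap in each pair.

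Other genes of GABA and glycine signaling were read from a list of 45, of which 44 were in the table and 43 were tested. None passed the threshold in either direction in edgeR, beside 0.0980% of all genes, and 1 of the 43 had an unadjusted p below 0.05, beside 5.39% of all genes. Their median log2 fold change was 0.035. In each group of this list the gene with the lowest p is given here. Among the genes of synthesis and vesicle loading, *Slc32a1*, the vesicular transporter of GABA and glycine, had 210 ± 4.98 CPM in control and 216 ± 10.6 CPM in NSKO mice (n = 3 each). Among the uptake genes, *Slc6a9*, the glial glycine transporter, had 125 ± 6.74 and 130 ± 7.51 CPM. Among the breakdown genes, *Gldc* of the glycine cleavage system had 28.8 ± 3.44 and 31.7 ± 2.36 CPM. These differences were within the spread of the mice, with log2 fold changes of 0.041 (SE 0.053), 0.054 (SE 0.061), and 0.14 (SE 0.091).

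*Plcl2*, a protein related to phospholipase C that assists GABAA receptor trafficking, was the gene with the unadjusted p below 0.05. It had 36.5 ± 3.90 CPM in control and 43.6 ± 3.02 CPM in NSKO mice, giving a log2 fold change of 0.26 (SE 0.084, unadjusted p = 0.00899, adjusted p = 0.749 in edgeR). *Kcnj9*, a potassium channel subunit opened by GABAB receptors, had 187 ± 6.53 and 179 ± 10.4 CPM. *Slc12a4*, a potassium chloride carrier of many cell types, had 41.1 ± 0.489 and 44.2 ± 2.28 CPM. Their log2 fold changes were −0.067 (SE 0.057) and 0.11 (SE 0.065), and neither passed the threshold.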

How the data were processed

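RNA-Seq was performed on cerebellum from 3 control and 3 *Slc39a8*-NSKO mice, which the methods name as biological replicates while a figure legend of the study speaks of technical triplicates; if they were not separate mice, p-values would measure technical spread alone. The authors prepared cDNA with oligo-dT and aligned reads with STAR, and the submitters' processing notes name RSEM, DESeq2, FastQC, and mm10 without versions. The library kit is directional per the labels, and the strand setting of the counting is not given in the sources used here. The authors deposited expected counts per gene without normalization, and these were rounded to whole numbers here. All values of the 27 members were whole as deposited.

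Spike-in rows, with 0 to 5 counts per mouse, were left out. The main test was edgeR 4.0.16 (glmQLFit and glmQLFTest, R 4.3.3) after TMM normalization and filterByExpr, with no covariate and Benjamini-Hochberg adjustment over 16330 genes. CPM are TMM-scaled. RPKM divide CPM by the union of exons in GENCODE M21. Ratios were compared by exact two-sided permutation tests. Scripts were tested on simulated data. Alternatives were DESeq2 1.42.0, limma-voom 3.58.1, other normalizations, filters, a replicate block, gene lengths, a threshold of 0.1, and each mouse left out. The members, gene lists, and ratios were chosen with earlier results of these data known. All 27 members are named. Of the other genes of the pathway those past the threshold and the gene with the lowest p in each group are named, and of the marker lists those the text gives. Promoter windows are from RefSeq. The level of 1 marker list is not reported here.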

Additional observations from a re-analysis of the deposited data

How the results depend on the processing

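The interval of *Glra1*, which had 6 to 62 counts in control mice, covers more than a halving and a rise. Its CPM was 29.1-fold higher in the highest mouse than in the lowest. *Gabrg3*, with 27 to 33 counts per mouse, had a smaller SE (0.27 against 0.69). The parts of depth and of differences between mice in this width were not tested. In edgeR 16 genes and 0 members passed. DESeq2 called 37 genes, a threshold of 0.1 called 27, and offsets for GC content and length, chosen after seeing the data, called 26, each with 0 members. With no filter on low counts, 178 genes and 2 members passed, *Gabra2* (−0.63, adjusted p = 6.65e-09 in edgeR) and *Gabrb2* (0.24, adjusted p = 0.0176). Under the other alternatives the adjusted p of *Gabra2* ran from 0.255 to 1.0 in the tools named. Without the filter edgeR shrank the spread of every gene to the trend, and the quasi-likelihood dispersion of *Gabra2* was 0.821 in place of 5.56. Correlations of deviations were 0.14, 0.12, and 0.010 between mice of the same number and −0.18 to 0.067 between mice of different numbers. Pairing by replicate number was thus neither shown nor excluded. The fit with a replicate block called 41 genes and 0 members. Leaving out 1 mouse gave 9 (without *Slc39a8*-NSKO mouse 2) to 38 genes (without control mouse 1) and 0 members, and a median of the members from −0.021 to 0.027. Of 320 values of single members under alternatives, 28 changed sign, in 14 members.

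With the offsets, the log2 fold changes that changed sign were 0.0016 for *Gabrb1*, −0.00090 for *Gabrd*, 0.030 for *Glrb*, and −0.00025 for *Lhfpl4*. With 1 mouse left out, the log2 fold changes that changed sign ran from −0.018 to 0.10 for *Abat*, −0.11 to 0.13 for *Gabra3*, −0.039 to 0.091 for *Gabra4*, −0.037 to 0.053 for *Gabra6*, −0.13 to 0.048 for *Gabrb1*, −0.072 to 0.088 for *Gabrd*, −0.058 to 0.16 for *Gabrg1*, −0.28 to 0.22 for *Gabrr2*, −1.78 to 0.41 for *Glra1*, −0.036 to 0.027 for *Glrb*, −0.0075 to 0.055 for *Gphn*, −0.00093 to 0.049 for *Lhfpl4*, −0.12 to 0.063 for *Shisa7*, and −0.021 to 0.25 for *Slc6a11*. Values of rare members that kept their sign also moved, from −0.77 to −0.078 for *Gabra5*, −0.37 to −0.055 for *Glra2*, and −0.40 (without control mouse 1) to −0.12 (without control mouse 3) for *Gabrg3*. The differences of the ratios that changed sign ran from −0.11 to 0.11 for *Gabra6*/*Gabra3*, −0.092 to 0.10 for *Gabra6*/*Gabrd*, and −1.87 to 0.37 for *Glra1*/*Glra2*. The cause of these moves was not tested. *Glra1* and *Gabrr2* could not be tested with at least 10 counts in every mouse.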
